A study of Mus musculus with 5 samples.

Results

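The 10 genes described here encode the AP-1 transcription factors and their close partners: the Fos family (Fos, Fosb, Fosl1 and Fosl2), the Jun family (Jun, Junb and Jund), Atf3, and the immediate early genes Egr1 and Ier2. Each was found once, by its symbol, among the 54699 genes of the deposited expression table. They were selected by name with their FPKM in these 5 libraries already known, so their levels and ratios are given as a description and no test is made of them. The cells were B16F10, a mouse melanoma line that makes pigment, and their RNA was sequenced in 5 libraries, 1 for each group. Cells that received lentivirus for Myod1, the transcription factor that starts the skeletal muscle programme, or for Pparg, the nuclear receptor that drives fat cell formation, were collected on day 8 with cells given the empty expression vector. Cells that received a short hairpin RNA against Setdb1, a histone methyltransferase of silent chromatin, were collected on day 7 with cells given the empty knockdown vector. All groups therefore carried lentivirus and grew in medium with serum, both controls are labelled wild type, and the promoter of each vector, the hairpin sequence and whether a culture was a clone are not given in the sources used here. The sample titles call the cells of the treated libraries differentiated and those of the others control cells. The Myod1 and Pparg comparisons share 1 control library. Differences between libraries have no replicate check, and no p-value can be given.

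AP-1 is a dimer of proteins with a basic leucine zipper, in which a Jun protein pairs with another Jun protein, with a Fos protein or with a member of the ATF group such as Atf3, and binds short palindromic DNA sites. Fos, Fosb, Jun, Junb, Egr1 and Ier2 are textbook immediate early genes, transcribed within minutes of growth factor or stress signals through factors that are already present, and their mRNAs are short-lived. Atf3 is induced by many kinds of cell stress. In melanoma cells the ERK and JNK kinase pathways are known to act on Jun and Fos proteins.

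Expression was deposited as FPKM, the fragments of a gene per kilobase of its length scaled by library size. Between 16214802 and 18300670 reads per library were recovered from these values, with the smallest nonzero FPKM times length in a library taken as a single read. By that step, 100% of the nonzero gene values were whole reads to within 0.001 of a read. Myod1 stood at 260 FPKM in its own library and Pparg at 44.4 FPKM in its own, each with 0 reads in the other 4, while Setdb1 stood at 0.867 FPKM with the hairpin and 9.82 FPKM in its control. Melanocyte markers were present in every library, with a summed level of the 10 genes between 2320 FPKM with Pparg and 9147 FPKM with Setdb1 knockdown. Markers of other cell types were low: the sums ranged from 2.15 to 19.1 FPKM for 8 leukocyte genes, from 0.438 to 2.52 FPKM for 6 fibroblast genes and from 0.0192 to 0.596 FPKM for 4 endothelial genes. Cd3e, Dcn and Lum had 0 reads in all 5 libraries, and Cd68, a protein of lysosomes that macrophages and other cells carry, gave most of the leukocyte sum.

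Promoters are shown for 4 genes with unlike level patterns: Atf3 and Jun, which were highest with Setdb1 knockdown, Junb, which was higher in all 3 treated libraries than in either control, and Fos, which was lowest with Setdb1 knockdown and highest with Myod1. Each sequence is the 250 bases before the RefSeq start in GRCm38.p6, read 5′ to 3′ on the gene's own strand, from chr1:191183334-191183583 on the minus strand for Atf3, chr4:95052223-95052472 on the minus strand for Jun, chr8:84978749-84978998 on the minus strand for Junb and chr12:85473640-85473889 on the plus strand for Fos. Capitals mark the matches to the motifs described after them.
Atf3: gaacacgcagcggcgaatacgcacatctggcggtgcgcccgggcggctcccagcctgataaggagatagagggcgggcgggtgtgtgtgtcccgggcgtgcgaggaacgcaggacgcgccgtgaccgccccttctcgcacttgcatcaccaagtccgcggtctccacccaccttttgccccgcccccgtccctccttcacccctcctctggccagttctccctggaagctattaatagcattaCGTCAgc
Jun: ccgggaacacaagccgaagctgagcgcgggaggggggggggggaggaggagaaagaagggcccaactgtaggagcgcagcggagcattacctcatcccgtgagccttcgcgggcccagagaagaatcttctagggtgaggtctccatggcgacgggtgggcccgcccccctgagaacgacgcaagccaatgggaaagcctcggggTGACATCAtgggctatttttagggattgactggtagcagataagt
Junb: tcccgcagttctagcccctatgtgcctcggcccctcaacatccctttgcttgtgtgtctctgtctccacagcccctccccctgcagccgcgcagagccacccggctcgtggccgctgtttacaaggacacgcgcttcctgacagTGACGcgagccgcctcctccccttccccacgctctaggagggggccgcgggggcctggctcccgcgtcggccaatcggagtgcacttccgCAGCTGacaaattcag
Fos: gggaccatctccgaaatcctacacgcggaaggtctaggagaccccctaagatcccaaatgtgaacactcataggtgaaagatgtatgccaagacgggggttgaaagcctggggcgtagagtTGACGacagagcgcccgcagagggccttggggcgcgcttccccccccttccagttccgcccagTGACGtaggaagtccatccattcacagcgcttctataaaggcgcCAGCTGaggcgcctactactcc

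The sequence table gave a promoter for 7 of the 10 genes: Atf3, Fos, Fosb, Fosl2, Jun, Junb and Jund. Motifs were searched on both strands from 250 bases before to 50 bases after the start, here and in all 32851 mouse promoters of that table. The AP-1 site TGACTCA was in none of the 7 windows, against 5.20% of all promoters, and the cAMP response element TGACGTCA was likewise in none, against 1.79%. The CArG box of serum response factor was not found in these windows either, against 1.63% of all promoters. Sites farther than 250 bases before a start were not searched, and Egr1, Fosl1 and Ier2 had no promoter to search. These absences therefore hold for the windows only and do not show that a gene lacks the site. The Egr site GCGGGGGCG or GCGTGGGCG was found in Fosb and Fosl2, against 3.47% of all promoters. The E-box CAGCTG, a form that myogenic factors bind, was found 17 to 22 bases before the start of Fos and 11 to 16 bases before that of Junb, and once in Jund, against 16.3% of all promoters. Searches for another pair of motifs were added after these promoters had been seen. TGACATCA, a variant of the AP-1 site that lies 38 to 45 bases before the start of Jun, was in 1 window and in 3.62% of all promoters. TGACG, the first part of the cAMP response element and so contained in every match to it, was in Atf3 (on the other strand, as CGTCA, 3 to 7 bases before the start), Fos, Fosb and Junb, and in 20.8% of all promoters. A match is a description of letters and shows no binding. The Atf3 start used here lies inside a longer gene span in the deposited table, and the Jund start lies upstream of the table's gene.

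In the cells with Setdb1 knockdown, Atf3 and all 3 Jun family genes stood at 3.36 to 14.3 times the level of the empty knockdown vector control, and the Fos family member Fosl2 stood at 2.97 times, while Fos and Egr1 were lower. Against the empty expression vector control the same 4 genes stood at 2.12 to 3.25 times and Fosl2 at 1.27 times. Genes were compared when their FPKM reached 1 in at least 1 library, which held for 12842 genes and for 8 of the 10 members. Fosb and Fosl1 did not reach it. A log2 ratio here is the difference in log2(FPKM + 1) between a treated library and its control, and the limit for a difference was a size of 1, that is 2-fold. Against the empty knockdown vector, 5 of the 8 compared members were at least 2-fold higher with Setdb1 knockdown (Atf3, Jun, Junb, Jund and Fosl2), beside 9.34% of all compared genes. No member was at least 2-fold lower on this scale, beside 10.3% of all compared genes, although the plain FPKM ratio of Egr1 was 0.344, which the added 1 draws under the limit. Against both controls 4 members were at least 2-fold higher, Fosl2 being lost, and none was lower, beside 5.8% and 7.56% of all compared genes. Because the genes were selected with these values known, the shares are set side by side without a reading. The median log2 ratio of the 8 members was 1.45, and that of all compared genes was 0.00. Against the other control the members' median was 0.80, with all compared genes again at 0.00.

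Atf3 had the widest range of the 10 genes. Its level was 51.4 FPKM with Setdb1 knockdown, 35.4 FPKM with Pparg, 19.2 FPKM in the empty expression vector control, 15.3 FPKM with Myod1 and 3.58 FPKM in the empty knockdown vector control. The last of these libraries stood far below the other 4, and no neighbouring pair in this order was within counting error. The FPKM ratio of Setdb1 knockdown to its control was 14.3, with an exact Clopper-Pearson 95% interval of 12.0 to 17.3 from 2047 and 129 reads; such intervals, and the Wilson intervals used for levels, cover counting error only. Of all compared genes, 0.0234% had a higher log2 ratio than Atf3 in this comparison. Much of that ratio lay in the control used: against the empty expression vector it was 2.68 (2.45 to 2.92). The Atf3 ratio with Pparg likewise was 1.85 (1.69 to 2.03) against its own control and 9.89 (8.26 to 11.9) against the other. The 2 control libraries themselves differed in Atf3 by a log2 ratio of -2.14, an FPKM ratio of 0.187 (0.153 to 0.226), and the cultures behind them differed in vector and in day, which cannot be told apart here. Cd68, from the leukocyte list, was also highest with Setdb1 knockdown, at 18.7 FPKM. It stood at 3.996 FPKM in the empty knockdown vector control and 12.2 FPKM in the empty expression vector control. With Pparg it went the other way from Atf3, at 1.87 FPKM, its lowest level, and with Myod1 it stood at 4.30 FPKM. Cd3e was at 0 in all 5 libraries.

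**Figure D1:**
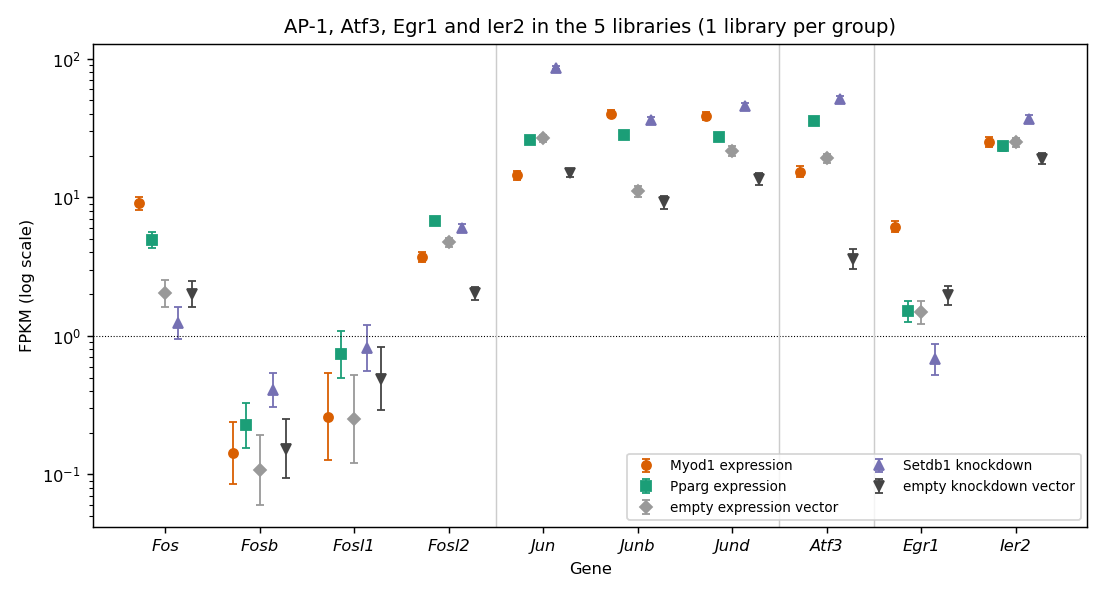
Level of each of the 10 genes in each of the 5 libraries, as FPKM on a log axis with 95% Wilson intervals for counting error; the dotted line marks an FPKM of 1. Atf3 runs from 3.58 FPKM in the empty knockdown vector control to 51.4 FPKM with Setdb1 knockdown, and Fosb and Fosl1 stay under the line in all 5 libraries.

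Jun, the founding member of its family and the main substrate of the JNK kinases among them, was highest with Setdb1 knockdown. It stood at 86.3 FPKM with Setdb1 knockdown, 26.6 FPKM in the empty expression vector control, 25.8 FPKM with Pparg, 14.9 FPKM in the empty knockdown vector control and 14.4 FPKM with Myod1. The Setdb1 knockdown library was above the other 4, the expression vector control and Pparg were within counting error of each other, and so were the knockdown vector control and Myod1. The ratio of Setdb1 knockdown to its control was 5.78 (5.36 to 6.23). Only 0.413% of compared genes had a higher log2 ratio. The log2 ratio was 2.45 against its own control and 1.66 against the other. Myod1 gave the opposite direction for this gene, with an FPKM ratio of 0.541 (0.494 to 0.593) and a log2 ratio of -0.84 that did not reach the limit. When each library was divided by its column sum instead of the deposited scaling, that log2 ratio was -1.21, and by the 75th percentile it was -1.02, both past the limit, and against the other control it was -0.05.

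Junb, which can restrain the activity of Jun when both are present, was the one member at least 2-fold higher in each of the 3 treated libraries against either control, beside 11.9%, 3.34% and 5.8% of all compared genes with Myod1, Pparg and Setdb1 knockdown. Its level was 40.2 FPKM with Myod1, 35.8 FPKM with Setdb1 knockdown, 28.2 FPKM with Pparg, 11.0 FPKM in the empty expression vector control and 9.17 FPKM in the empty knockdown vector control. The 3 treated libraries lay above both controls without overlap of their counting intervals. The FPKM ratios were 3.65 (3.27 to 4.08) for Myod1, 2.56 (2.29 to 2.86) for Pparg and 3.91 (3.48 to 4.40) for Setdb1 knockdown, each against its own control. The first pair shares the control library, so they are not independent of each other. Junb overlaps Prdx2, a peroxiredoxin gene on the opposite strand, by 173 exon bases, all in a short second Junb transcript, and Prdx2 had log2 ratios of 0.76, 0.77 and 0.62 in the same 3 comparisons. How the counting treated strand is not given in the sources used here, and the share of Junb reads from Prdx2 was not tested.

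Jund, the family member usually described as steadily expressed, differed less. It stood at 45.7 FPKM with Setdb1 knockdown, 38.6 FPKM with Myod1, 27.1 FPKM with Pparg, 21.5 FPKM in the empty expression vector control and 13.6 FPKM in the empty knockdown vector control. All 3 treated libraries were above both controls. The FPKM ratio was 3.36 (2.999 to 3.775) for Setdb1 knockdown and 1.80 (1.62 to 1.99) for Myod1. For Pparg it was 1.26 (1.13 to 1.40), which excluded 1 by counting error but did not reach the 2-fold limit. Against the other control the ratios were 2.12 for Setdb1 knockdown, 2.84 for Myod1, then past the limit, and 1.99 for Pparg. With trends in GC content and length removed, the log2 ratio of this gene was 0.37 with Myod1 and 0.09 with Pparg.

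The summed level of the Jun family followed from these. It was 168 FPKM with Setdb1 knockdown, 93.2 FPKM with Myod1, 81.0 FPKM with Pparg, 59.1 FPKM in the empty expression vector control and 37.7 FPKM in the empty knockdown vector control. FPKM is per length, so shares within the family can be set side by side. Antisense genes overlap 877 exon bases of Jund (Gm11175, with 0 reads in all libraries) and 232 of Jun (Junos), and whether reads there were dropped in the counting was not tested. Jun made up 51.4% of the family sum with Setdb1 knockdown, 45.0% and 39.6% in the expression vector and knockdown vector controls, 31.8% with Pparg and 15.4% with Myod1. Junb made up 43.1% with Myod1, close to Jund at 41.4%, and 18.6% in that library's control. As deposited, Jun thus had the largest share with Setdb1 knockdown and the smallest of the 3 with Myod1; in the empty knockdown vector control and with Pparg, Jun and Jund were close, at levels of 14.9 and 13.6 FPKM, and of 25.8 and 27.1 FPKM.

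**Figure D2:**
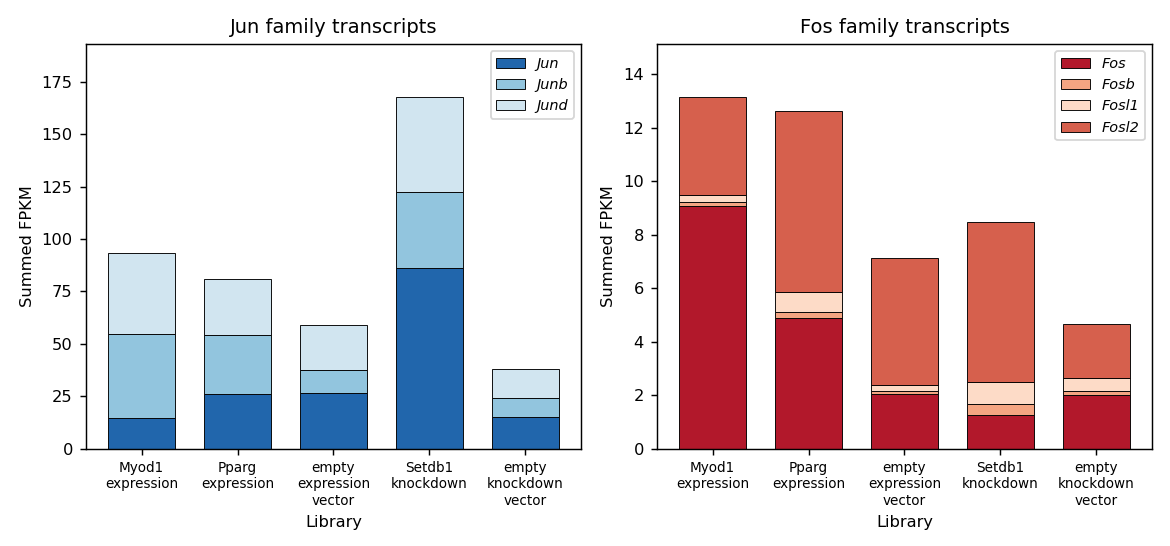
Summed FPKM of the Jun family (Jun, Junb, Jund) and of the Fos family (Fos, Fosb, Fosl1, Fosl2) in the 5 libraries, as stacked bars with 1 colour per gene. The Jun family sum runs from 37.7 FPKM in the empty knockdown vector control to 168 FPKM with Setdb1 knockdown, and the Fos family sum from 4.67 to 13.2 FPKM.

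The Fos family, whose proteins bind DNA only as partners of another zipper protein such as Jun, was expressed at a lower level in every library. Its summed level was 13.2 FPKM with Myod1, 12.6 FPKM with Pparg, 8.48 FPKM with Setdb1 knockdown, 7.11 FPKM in the empty expression vector control and 4.67 FPKM in the empty knockdown vector control. The Jun family sum was 19.8 times the Fos family sum with Setdb1 knockdown and between 6.42 and 8.31 times it in the other 4 libraries. The leading Fos family gene was not the same in every library: Fos made up 68.9% of the sum with Myod1 and 14.6% with Setdb1 knockdown, where Fosl2 made up 70.9%.

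Fos went in opposite directions in the treated libraries. It stood at 9.06 FPKM with Myod1, 4.88 FPKM with Pparg, 2.03 FPKM in the empty expression vector control, 2.01 FPKM in the empty knockdown vector control and 1.24 FPKM with Setdb1 knockdown. The controls were within counting error of each other, so the choice of control mattered little for this gene. The FPKM ratio was 4.46 (3.48 to 5.78) for Myod1. For Pparg it was 2.40 (1.85 to 3.15), with a log2 ratio of 0.96 that fell just short of the limit because of the added 1. For Setdb1 knockdown it was 0.618 (0.429 to 0.884), from 54 reads against 79, so this lower value rests on few reads.

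Fosl2, a Fos relative that lacks the strong activation domain of Fos, stood at 6.79 FPKM with Pparg, 6.01 FPKM with Setdb1 knockdown, 4.72 FPKM in the empty expression vector control, 3.69 FPKM with Myod1 and 2.02 FPKM in the empty knockdown vector control. It was the 1 member past the limit with Setdb1 knockdown against its own control whose log2 ratio did not reach it against the other: 1.21 and 0.29. The control libraries differed by a log2 ratio of -0.92 for this gene. Fosb and Fosl1, the other two family members, were near the lower end of detection. Fosb ranged from 0.108 FPKM (11 reads) in the empty expression vector control to 0.407 FPKM (47 reads) with Setdb1 knockdown, an FPKM ratio of 2.65 (1.48 to 5.01) to the knockdown vector control. Fosl1 ranged from 0.251 FPKM in the same control to 0.823 FPKM with Setdb1 knockdown, where the ratio to the knockdown vector control was 1.68 (0.845 to 3.48) and that to the expression vector control 3.28 (1.39 to 8.95). With Pparg, the ratio of Fosl1 was 2.92 (1.22 to 8.03), from 24 reads against 7, and 1.495 (0.743 to 3.13) to the knockdown vector control, so whether counting error separates Fosl1 turned with the control in both comparisons. Fosl1 shares 1163 exon bases with Ccdc85b on the opposite strand, a gene with levels between 24.7 and 106 FPKM that had log2 ratios of 0.94, 1.80 and 1.39 with Myod1, Pparg and Setdb1 knockdown. The part of those reads in the Fosl1 values was not tested.

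Egr1, a zinc finger factor and a standard readout of ERK signalling, was, like Fos, highest with Myod1 and lowest with Setdb1 knockdown. It stood at 6.14 FPKM with Myod1, 1.96 FPKM in the empty knockdown vector control, 1.501 FPKM with Pparg, 1.47 FPKM in the empty expression vector control and 0.675 FPKM with Setdb1 knockdown. The Myod1 library stood apart from the other 4, and Pparg and its control were within counting error. The FPKM ratio was 4.17 (3.37 to 5.19) for Myod1 and 0.344 (0.248 to 0.471) for Setdb1 knockdown, the latter from 56 reads against 147. Its log2 ratio of -0.82 with Setdb1 knockdown did not reach the limit, but was -1.16 once trends with GC content and gene length were removed and -1.41 with 0.1 in place of 1 added to each FPKM, and was -0.56 against the other control.

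Ier2, a small nuclear protein of less well known function, had the narrowest range, with its highest level 1.94 times its lowest. It stood at 36.8 FPKM with Setdb1 knockdown, 25.0 FPKM with Myod1, 24.9 FPKM in the empty expression vector control, 23.3 FPKM with Pparg and 18.9 FPKM in the empty knockdown vector control. Among the middle 3 libraries of this order, neighbours were within counting error of each other, and the highest and the lowest library stood apart from them. Its log2 ratio of 0.92 with Setdb1 knockdown was under the limit, and it was 0.55 against the other control and 0.38 with trends in GC content and length removed.

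Against the empty expression vector, 3 of the 8 compared members were at least 2-fold higher with Myod1 (Junb, Fos and Egr1), beside 14% of all compared genes, and none was at least 2-fold lower in the deposited scaling, beside 7.55%. With Pparg the count was 1 of 8 (Junb), beside 4.22% of all compared genes, and none was lower, beside 2.3%. The median log2 ratio of the members was 0.41 with Myod1 and 0.38 with Pparg, and that of all genes was 0.02 and -0.02. Against the other control the members' medians were 1.36 and 0.96, beside 0.02 and -0.01. Both then lay above the 0.80 of Setdb1 knockdown, so the order of the treatments by this median turned with the control. A large share of all genes differed beyond counting error, so such a difference is common between these libraries. By that measure 4 of the 8 compared members were higher and 3 lower with Myod1, beside 39.6% and 37.1% of all compared genes. With Pparg 5 were higher and none lower, beside 28.8% and 34.7%, and with Setdb1 knockdown 6 were higher and 2 lower, beside 38.9% and 37.3%. The lower members were Jun, Atf3 and Fosl2 with Myod1, and Fos and Egr1 with Setdb1 knockdown. Against the other control, 7 were higher and none lower with Myod1, beside 40.1% and 37.3% of all compared genes. With Pparg 7 were then higher and 1, Egr1, was lower, beside 32.3% and 35.2%, and with Setdb1 knockdown 6 were higher and 2, again Fos and Egr1, were lower, beside 38.4% and 37.8%.

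Without a named treatment, these genes can be compared only between the controls, which also differ in vector and in day. Their difference is therefore not a spread between like cultures. In the empty knockdown vector library, 6 of the 8 compared members were lower than in the empty expression vector library beyond counting error (Atf3, Fosl2, Jun, Jund, Ier2 and Junb), beside 29.5% of all compared genes, and 1 was higher (Egr1), beside 25.9%. At the 2-fold limit on log2(FPKM + 1), 1 member, Atf3, was lower, beside 1.44% of all compared genes, and no member was higher, beside 1.23%. The plain FPKM ratio of Fosl2 was 0.428 (0.374 to 0.488), and its log2 ratio was -1.19 with 0.1 in place of 1 added. The median log2 ratio of the 8 compared members between the controls was -0.50, and that of all genes was -0.00. Most ratios therefore moved with the control chosen. Against the other control, 5 of 8 were at least 2-fold higher with Myod1 (Junb, Atf3, Fos, Jund and Egr1), beside 15.1% of compared genes, 3 with Pparg (Atf3, Junb and Fosl2), beside 5.52%, and 4 with Setdb1 knockdown (Jun, Junb, Atf3 and Jund), beside 8.72%. None was at least 2-fold lower, beside 7.51%, 2.41% and 11% in the same order, and none was lower against both controls with Myod1 or Pparg, beside 4.42% and 0.849%. The sign of the Atf3 difference with Myod1 turned with the control, from -0.31 to 1.83, and so did that of Fosl2, from -0.29 to 0.64.

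**Figure D3:**
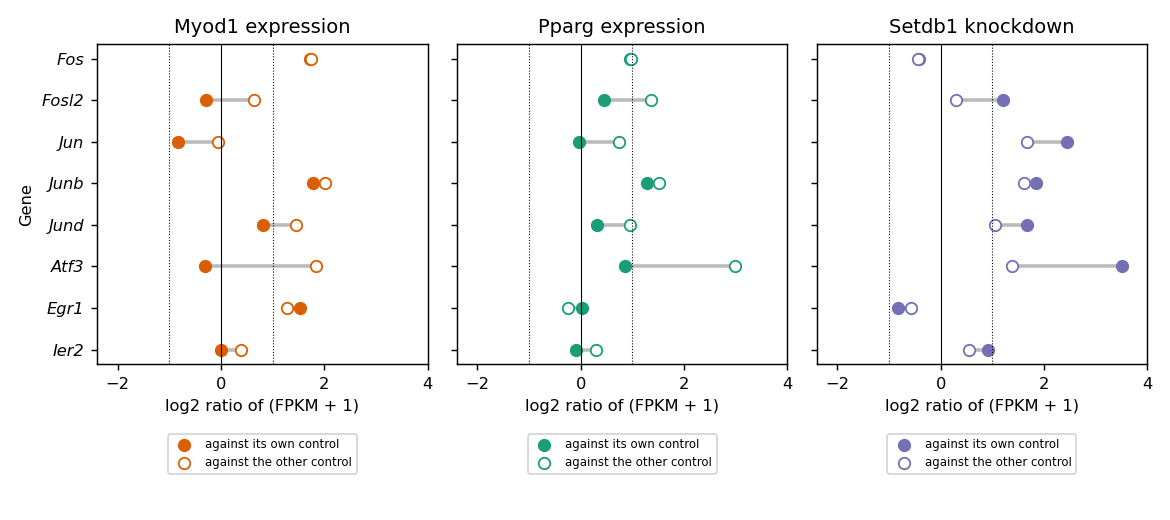
Log2 ratio of each compared member in the 3 treated libraries, with filled points against the library's own control and open points against the other control; lines mark the 2-fold limit. Atf3 has the widest gap between filled and open points, for Setdb1 knockdown 3.51 and 1.38, while Fos keeps nearly the same value under both, for Myod1 1.73 and 1.74.

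Gene structure, which the selection did not use, differed among the members. Jun, Junb, Jund and Ier2, 4 of the 10, have a single exon in their longest transcript, compared with 5.49% of the compared protein-coding genes, whose median is 8 exons, while Atf3 and the Fos family genes have 4 exons and Egr1 has 2. The GC content of the longest transcript had a median of 56.6% over the 10 genes and 50.1% over compared genes. It ran from 51.9% in Fos, 52.2% in Atf3 and 53.1% in Fosl2, all under the 75th percentile of compared genes at 54.7%, to 67.1% in Jund. Ratios in these libraries carry trends with GC content and length. With those trends removed, the log2 ratios with Setdb1 knockdown were 3.19 for Atf3, 2.24 for Jun, 1.28 for Junb, 1.07 for Jund and 1.26 for Fosl2, all still past the limit. Fos, Junb and Egr1 with Myod1 were then 1.53, 1.33 and 1.41, and Junb with Pparg was 1.04. Removing the trends also put other members past the limit: Jun with Myod1, at -1.05, and Egr1 with Setdb1 knockdown, at -1.16, both lower. In genomic position, Junb, Jund and Ier2 lie on chromosome 8, between 70698949 and 84978718 in GRCm38, and the others on separate chromosomes.

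Other basic leucine zipper genes were taken as a list of 27, of which 24 were compared. With Setdb1 knockdown 7 were at least 2-fold higher and none lower against its own control, beside 9.34% and 10.3% of all compared genes, and 4 were higher against both, beside 5.8%. The median log2 ratio was 0.63, and 0.22 against the other control, beside 0.00 for all compared genes. Atf5, a stress-responsive relative of Atf4, had 2.32 (1.46 against the other control), and Cebpb, a zipper factor of inflammation and fat cell formation, had 2.28 (1.13). With Pparg the 2 higher genes were Cebpd and Cebpb, partners of Pparg in fat cell formation, at 2.93 and 1.11, and none was lower, beside 4.22% and 2.3% of all compared genes. With Myod1, beside 14% and 7.55%, Creb3 was higher at 1.23, and Ddit3 and Jdp2, a repressor that pairs with Jun, were lower at -1.60 and -1.15. These last values were -0.05 and 0.17 against the other control. The list's median was -0.02 with Myod1 and -0.27 with Pparg, and 0.19 and 0.05 against the other control. With Myod1 4 were then higher and none lower, beside 15.1% and 7.51% of all compared genes. With Pparg 4 were likewise higher and none lower, beside 5.52% and 2.41%. Between the controls, Ddit3, Jdp2, Cebpb and Atf4 were the 4 genes at least 2-fold lower in the knockdown vector library, at -1.55, -1.31, -1.16 and -1.03, beside 1.44% of all compared genes.

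A list of 44 other immediate early genes, 38 of them compared, held more high values with Setdb1 knockdown than low ones. There 19 were at least 2-fold higher and 2 lower, beside 9.34% and 10.3% of all compared genes. Against both controls 16 were higher and none lower, beside 5.8% and 7.56%. The median was 0.98 against its own control and 0.80 against the other. Among these, Ppp1r15a, a phosphatase subunit that ends the arrest of translation under stress, had 2.63 (1.10 against the other control), and Rhob, a small GTPase, had 2.07 (1.51). The lower pair were Myc and Ctgf at -1.24 and -1.16, and neither reached the limit against the other control. With Myod1, 9 were higher and 3 lower, beside 14% and 7.55% of all compared genes. The kinase gene Sik1 led at 3.95, followed by the antiproliferative gene Btg2 at 3.74, and the lower genes were Ier3 at -1.78, Klf10 at -1.31 and Klf6 at -1.16. None of those 3 reached the limit against the other control. There 13 genes were higher and another pair lower, Myc at -1.29 and Ifrd1 at -1.02, beside 15.1% and 7.51% of all compared genes. With Pparg 7 were higher and none lower, beside 4.22% and 2.3%, led by Btg2 at 2.93 and Plk2 at 1.94. The list's median was 0.24 with Myod1 and 0.18 with Pparg, and 0.57 and 0.43 against the other control. With Pparg 8 were then higher and 1, Myc at -1.09, was lower, beside 5.52% and 2.41% of all compared genes. The controls differed at least 2-fold in 3 of the 38, all lower in the knockdown vector library, beside 1.44% of all compared genes: Ier3 at -1.87, Ppp1r15a at -1.52 and Nfil3 at -1.03.

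The kinases and factors upstream of AP-1 (ERK, JNK and p38 kinases, their activators, and the partners of serum response factor; 19 genes, all compared) are read beside the same shares of all compared genes as the members. With Setdb1 knockdown, beside 9.34% higher and 10.3% lower, Mapk3, which encodes ERK1, was at 1.02, and Mapk9, which encodes JNK2, and Rps6ka3, a kinase that ERK activates, were at -1.43 and -1.33. Mapk3 was at 0.53 against the other control, where no gene of the list was at least 2-fold higher. With Myod1, beside 7.55% lower, Rps6ka3 was at -1.40 and Elk3 at -1.21. No gene of this list passed the limit with Pparg, beside 4.22% higher and 2.3% lower, or between the controls. Its median was 0.04 with Myod1, -0.02 with Pparg and -0.17 with Setdb1 knockdown.

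The genes that ERK signalling is known to induce, among them the feedback inhibitors of the Dusp, Spry and Spred families, differed in both directions between treated libraries. Of 13 genes, 12 were compared, and with Setdb1 knockdown 6 were at least 2-fold lower and 1 higher, beside 10.3% and 9.34% of all compared genes, with a median of -1.13. Ccnd1, cyclin D1, was lowest at -2.58 (-1.82 against the other control), and Etv5 was at -1.84. The Etv5 value was -0.26 against the other control, 4 genes were lower against both, beside 7.56% of all compared genes, and the median against the other control was -0.36. Phlda1 was the higher gene, at 1.02, and 0.70 against the other control. With Myod1, where 14% and 7.55% of all compared genes were higher and lower, 5 were higher and none lower: Etv5 at 3.81, Etv4 at 1.26, Dusp6 at 1.09, Spry4 at 1.08 and Spry2 at 1.03. With Pparg, beside 4.22% of all compared genes, the 4 higher genes were Etv5 at 2.17, Dusp6 at 1.68, Etv4 at 1.35 and Spry4 at 1.21. Etv4 and Spry4 had 5 reads each in the shared control. The list's median was 0.79 with Myod1 and 0.47 with Pparg, and 0.37 and 0.28 against the other control. There 1 gene was higher and 1 lower with Myod1, beside 15.1% and 7.51% of all compared genes. None passed the limit with Pparg against that control, beside 5.52% higher and 2.41% lower. Etv5 itself differed between the controls by 1.58.

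**Figure D4:**
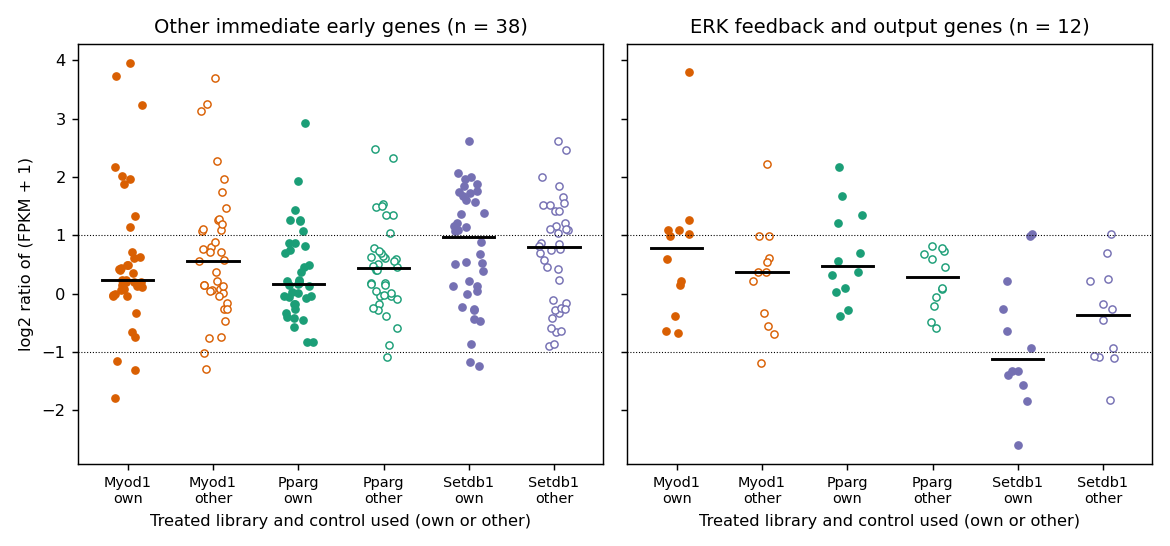
Log2 ratio of each compared gene in the list of 38 other immediate early genes (left) and of 12 ERK feedback and output genes (right), for each treated library against its own and against the other control; points are genes and black lines are medians. With Setdb1 knockdown the medians are 0.98 and 0.80 on the left and -1.13 and -0.36 on the right.

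Genes reported elsewhere as AP-1 targets, a list of 22 with 15 compared, did not move as 1 group. The shares of all compared genes are those given beside the members. With Setdb1 knockdown 4 were higher (Spp1 at 2.59, Hmox1 at 1.88, Tgfb1 at 1.82 and Mt2 at 1.35) and 1 was lower (Cd44 at -1.97). With Myod1 Spp1, the secreted protein osteopontin, was at 4.94, Hbegf was at 1.95, and Mmp9, a secreted protease, had 169 reads against 0, which is at least 58.5-fold when the control is set to 3 reads. Lower with Myod1 were Mmp14 at -1.93, Mt1 at -1.49, Timp1 at -1.36, Cd44 at -1.35 and Hmox1 at -1.07. Mmp14 and Cd44 were lower against both controls, while Mt1, Timp1 and Hmox1 were at -0.98, -0.76 and -0.18 against the other. With Pparg Tgfb1 was at 1.05. Lif and Ccl2 were also higher with Pparg, at 1.08 and 1.05 FPKM, with 1 read of Lif and 0 of Ccl2 in the control, and the log2 ratio of Lif was 1.04 against its own control and 0.85 against the other. Vegfa was lower with Pparg at -1.26, but was at 0.94 against the other control, and it was the gene of this list that differed between the controls, at -2.21. The list's median was 0.05 with Myod1, 0.31 with Pparg and 0.48 with Setdb1 knockdown. Exchanging the controls changed these medians to 0.08 for Myod1, 0.78 for Pparg and 0.18 for Setdb1 knockdown. The highest median thus moved from Setdb1 knockdown to Pparg. Of 5 ubiquitin ligase genes reported to act on Jun or Fos proteins, Nedd4 and Itch were lower with Setdb1 knockdown, at -2.48 and -1.22, beside 10.3% of all compared genes, and none passed the limit in the other comparisons.

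For each compared member, the genes with the nearest profile over the 5 libraries were found by the root mean square distance between log2(FPKM + 1) values centred on their mean. Atf3 was nearest to Hist1h2bg, Cebpb and Txnip, at distances of 0.403, 0.412 and 0.435 log2 units, beside a standard deviation of the Atf3 profile of 1.21. Sdsl and H2-K2 were among the nearest to Jun, at 0.178 and 0.205. The Junb profile was followed more closely, by Zfp36, which encodes a protein that promotes decay of short-lived mRNAs and is itself on the immediate early list, at 0.0636, then by Map1lc3a at 0.0973 and Dbp at 0.120. Jund was nearest to Lncppara, Bsdc1 and Acvr1b at 0.0547 to 0.101. Fos was nearest to 1700007L15Rik, Iqsec1 and Hs6st1 at 0.0192 to 0.113, and Egr1 to Cdc42ep3, Tulp4 and Hipk3 at 0.0805 to 0.108. Fosl2 was nearest to Nudt18, Gm10863 and Sbno2 at 0.0702 to 0.122, and Ier2 to Dnal4, Cib1 and Tmed9 at 0.0289 to 0.0443. No member was among the 3 nearest of another member. With 5 points per profile these distances describe the libraries only. In bulk RNA, fewer cells expressing a gene and less RNA per cell cannot be told apart.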

How the data were processed

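RNA was sequenced from 5 B16F10 cultures, 1 library per group, after extraction with TRIzol and library construction with an NEBNext Ultra kit, per the labels' protocols. The submitters' processing notes name CASAVA, HISAT2, featureCounts 1.5.0-p3 and GRCm38, with no roles; RNA selection and strand handling are not given in the sources used here. The authors deposited 1 table of FPKM values for 54699 genes, with identifier, symbol, position and length per the file headers. Reads per gene were recovered from the FPKM steps. The authors' divisor was 0.859 to 1.10 times the recovered reads of a library and equalled median-of-ratios size factors, so the deposited FPKM were already scaled between libraries.

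Values were compared as log2(FPKM + 1) with a 2-fold limit, for genes whose FPKM reached 1 in some library. FPKM ratios have exact Clopper-Pearson 95% intervals and levels have Wilson 95% intervals. With 1 library per group no test was made. The calculations used Python 3.11.15 with numpy 2.4.6, pandas 2.3.3 and scipy 1.17.1, and were tested on simulated data. Alternatives were a pseudocount of 0.1, a limit of 4-fold, scaling by the column sum or the 75th percentile, centring on the median, the other control and, added after seeing the data, removal of trends with GC content and length (20 bins, 5 rounds).

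The members and the gene lists were chosen with earlier results of these data known. Genes named are all members, the targeted genes, up to 2 highest and 2 lowest genes past the limit per list and comparison, and the 3 nearest profiles of each compared member. Cd68 between libraries, and genes beyond 2 that complete a short count, were named after their values were seen. A few genes that the rule names are not reported here. Ddit3 is on 2 rows of the table, and the row with the higher mean was used. Positions equal those of GENCODE M21 for 98.3% of 54409 shared identifiers. Protein sequences were not used here, so the comparison of zipper regions that was planned was not made.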

Additional observations from a re-analysis of the deposited data

How the results depend on the processing

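With 1 library per group, leaving out a library leaves no comparison, and no paired analysis was possible because each group has 1 library. At a limit of 4-fold, 0 members and 608 genes passed with Myod1, 0 and 114 with Pparg, 2 (Jun and Atf3) and 310 with Setdb1 knockdown, and 1 (Atf3) and 36 between the controls, against 2768, 837, 2526 and 343 genes at 2-fold. With a pseudocount of 0.1, 2 members (Fos and Junb) and 1729 genes passed with Pparg, 6 members (Egr1 added as a lower gene) and 4027 genes with Setdb1 knockdown, and 2 members (Fosl2 and Atf3) and 952 genes between the controls. Division by the column sum gave 2 members and 927 genes with Pparg. Jun was added as a lower gene with Myod1, making 4 members, under that scaling (3145 genes), the 75th percentile (2823) and the removal of GC and length trends (2494). That removal gave 6 members, again with Egr1, and 1970 genes with Setdb1 knockdown. The other control gave 5 members with Myod1 and 3 with Pparg. The deposited Myod1 library has 65.0% of its 2-fold differences higher; this share was 39.4% by the column sum and 52.7% by the 75th percentile, with the median of all genes at -0.26 and -0.11. Ier2 with Myod1 changed sign under these scalings. Of the members' log2 ratios, 18 of 24 moved beyond counting error with the other control and 14 of 32 with the GC and length trends removed. Depth limits Fosb and Fosl1, with 7 to 47 reads per library, and Fos and Egr1 with Setdb1 knockdown.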
